A study of Homo sapiens and Mus musculus with 16 samples.

Results

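The genes described here encode the subunits of the human proteasome. They are the rows of the deposited mRNA table whose symbol is PSMA, PSMB, PSMC, PSMD or PSME followed by a number, which gave 43 of 22314 genes. They were measured in the SK-HEP-1 cell line, derived from a human liver tumour, which received either the solvent DMSO (untreated, U) or 0.5 mg/ml of an ethanol extract of the fruiting body of the fungus Antrodia cinnamomea (AcFBE, treated, T) for 2 or 4 h. The 4 conditions are named 2U, 2T, 4U and 4T. Poly(A) RNA of each was converted to cDNA, amplified by PCR and sequenced on SOLiD 3 in 1 library per condition, so that no comparison at a single time has a replicate or a test.

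The proteasome degrades proteins that carry ubiquitin chains. Its core particle is a stack of rings in which the outer alpha rings (PSMA genes) gate the entry and the inner beta rings (PSMB genes) hold the proteolytic sites. The regulatory particle on top has a base, in which a ring of ATPases (PSMC genes) unfolds the substrate, and a lid (part of the PSMD genes), which removes the ubiquitin chain. The PSME genes encode alternative activators of the core, and interferon induces replacement beta subunits that form the immunoproteasome. In human cells the transcription factor NFE2L1 raises many subunit genes together when the proteasome is inhibited, through antioxidant response elements in their promoters.

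Levels are FPKM (fragments per kilobase of transcript, scaled to the mapped reads of the library), which scale for the length of the transcript. How evenly the PCR amplification covered different transcripts was not tested, so differences between genes within a library carry this limit. FPKM values are relative to the rest of the mRNA, so a change of total mRNA per cell cannot be seen in them. A member was measured in a comparison if its mean over the 4 libraries was at least 1 FPKM and both values were above 0. Of the 43 members 39 had such a mean. PSMA8, the testis form of PSMA7, and PSMB11, the beta subunit of the thymus, were listed at 0 in all 4 libraries. PSMD5 and PSME4 were listed above 0 but had means below 1 FPKM. The FPKM values give no read counts per gene, although the paper reports the qualified and mapped reads of each mRNA library. Of 10 hepatocyte markers 9 were listed at 0 in all 4 libraries, albumin among them, and SERPINA1 reached at most 18.7 FPKM. All 5 endothelial markers were at 0 as well. Of 4 mesenchymal markers only VIM was high, between 6465 and 13625 FPKM, while FN1 was at most 14.5 FPKM, COL1A1 was above 0 in 4T alone and COL1A2 was at 0. The libraries differed in how low values were listed, with 2656 genes between 0 and 0.2 FPKM in 2U, 1173 in 2T and 0 in both 4U and 4T.

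RefSeq promoters (GRCh38.p14) were given for 38 of the 43 members, in 45 windows that reach 250 bases upstream of an annotated start. PSMA7, PSMB1, PSMB6, PSMB7 and PSMD4 had no entry. The core of the antioxidant response element, TGACNNNGC on either strand, was found in 11 of the 45 windows (24.4%) and in 10.9% of all 35116 windows. The element CCAAT was found in 18 member windows (40.0%) and in 32.0% of all windows. The 11 members with the first motif were PSMA4, PSMB3, PSMB9, PSMC5, PSMD3, PSMD5, PSMD9, PSMD12, PSME1, PSME2 and PSME4, so they came from most classes. In PSMA4, PSMC5 and PSME2 the stretch around the match also lies inside another transcript of the same gene. A match is a description of the sequence and no evidence of binding. The 3 stretches of 100 bases below are shown because they belong to members with a single annotated start and with different values in the libraries. PSMD12 was the member with the largest treated to untreated ratio at 2 h, PSMD3 was higher with AcFBE at 2 h and lower at 4 h, and PSMB3 was lower at both times. Capitals mark the motif, whose last base lies 157, 29 and 96 bases upstream of the start in the same order. The stretches are at chr17:67366689-67366788, minus strand, chr17:39980707-39980806, plus strand, and chr17:38752591-38752690, plus strand.
PSMD12: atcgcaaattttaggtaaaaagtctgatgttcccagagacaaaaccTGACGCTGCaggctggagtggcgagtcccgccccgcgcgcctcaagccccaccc
PSMD3: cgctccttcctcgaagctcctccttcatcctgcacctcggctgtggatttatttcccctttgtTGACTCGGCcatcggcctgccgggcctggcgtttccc
PSMB3: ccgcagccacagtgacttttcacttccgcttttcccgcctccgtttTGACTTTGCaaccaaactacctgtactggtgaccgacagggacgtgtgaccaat

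With AcFBE most subunit genes were higher, and the classes differed. At 2 h the median ratio of the 38 members measured was 1.96-fold (log2 0.97), beside 1.02-fold (log2 0.03) for all 5211 genes measured. Of these 38 members 18 were at least 2-fold higher in 2T than in 2U, where 22.6% of all genes were, and 4 (PSMB3, PSMB4, PSMD2 and PSME3) were at least 2-fold lower, where 18.7% were. At 4 h the median of 39 members was 1.58-fold (log2 0.66) and that of all 5392 genes 0.782-fold (log2 -0.35). In that comparison 14 members were at least 2-fold higher, beside 16.4% of all genes, and 1 (PSMB8) was at least 2-fold lower, beside 27.7%. Both treated libraries lay above both untreated ones for 25 of 39 members (23.7% of 5445 genes) and below them for 7 (33.4%). For the remaining 7 members the treated and untreated values overlapped. At both times 13 of 38 members were at least 2-fold higher (8.31% of all genes), and 0 were at least 2-fold lower (10.2%).

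Both times were also put in 1 model, a fit of log2 FPKM with time and treatment as terms that was added after the data were seen. It treats the times as repeats of the treatment and leaves 1 residual degree of freedom, to which limma adds the spread shared by all genes. With Benjamini-Hochberg adjustment over 5199 genes, 0 of 38 members passed an adjusted p of 0.05, beside 0.0192% of all genes higher and 0.115% lower. The smallest adjusted p of a member in limma was 0.144, for PSMA4, PSMD10 and PSMC1. At an unadjusted p under 0.05, 16 of 38 members were higher, beside 9.71% of all genes, and 2 (PSMB3 and PSMD2) were lower, beside 11.2%. The 16 were 7 alpha, 4 ATPase and 4 lid genes and PSMD10.

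These counts depend on how the libraries are scaled. With scaling to the upper quartile of genes above 0, the 2 h counts became 7 higher and 5 lower, with 10.5% and 41.0% of all genes, and the 4 h counts 21 higher and 1 lower, with 23.8% and 16.3%. The median of all genes moved to -0.74 at 2 h and to 0.01 at 4 h under it. This quartile is taken over the genes above 0, whose number depends on how low values were listed.

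**Figure D1:**
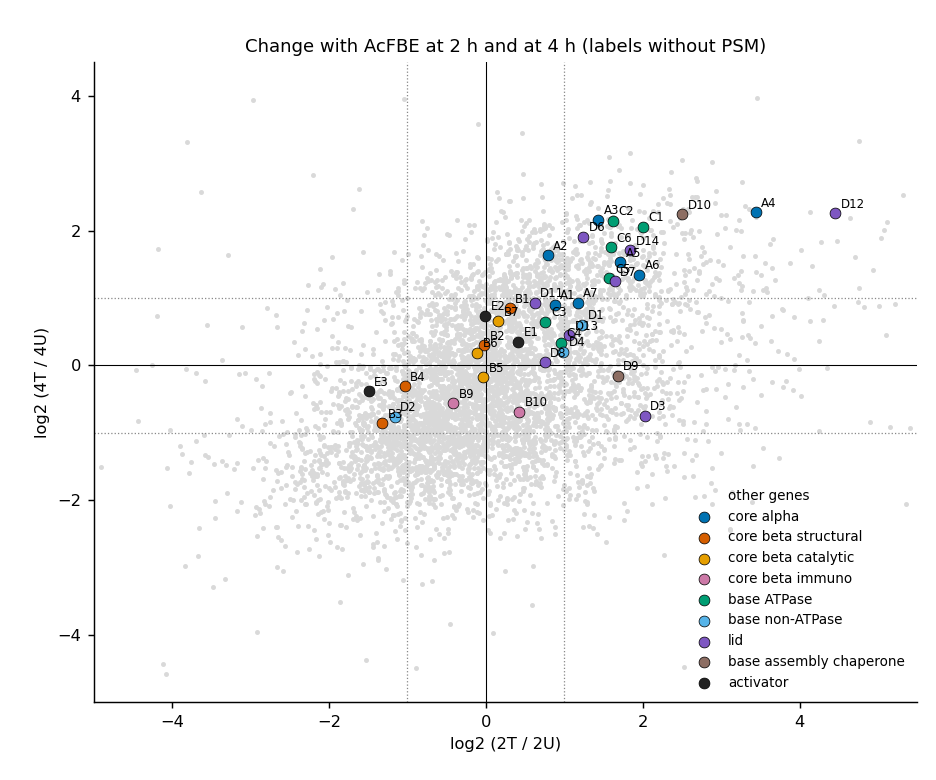
Log2 ratio of treated to untreated FPKM at 2 h (x axis) against 4 h (y axis), with 1 coloured point per subunit gene and grey points for other genes; dotted lines mark 2-fold, and genes beyond the axes are not drawn. Core alpha, base ATPase and most lid genes lie in the upper right, no core beta gene passes 2-fold higher, and PSMB8 has no 2 h ratio because it was listed at 0 in 2T.

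The 2 h and 4 h ratios, which share no library, followed each other across members (Spearman rho 0.71, Pearson r 0.73, n = 38), beside rho 0.45 and r 0.43 over 5199 genes. Genes are not independent replicates, and these values describe the 4 libraries. The ratio at 2 h was larger for members that were low in untreated cells. Across members the 2 h ratio had a rho of -0.61 (r -0.61) with the level in 4U, a library that the ratio does not contain, and across all genes rho was -0.10. For the 4 h ratio and the level in 2U the measures differed, with a rho of -0.40 and an r of -0.04 across 39 members. Across all genes these were -0.05 and -0.04. The 39 include PSMB8, at 0.704 FPKM in 2U and log2 -6.46 at 4 h, which has no 2 h ratio. The weight of PSMB8 in the r at 4 h was not tested.

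Without AcFBE the subunit mRNAs were far from equal, although each ring takes up its subunits in equal number. The summed FPKM of the 7 constitutive beta genes (PSMB1 to PSMB7) was 10633 in 2U and 8366 in 4U. The 7 alpha genes other than PSMA8 summed to 1454 in 2U and 1593 in 4U. Beta mRNA thus exceeded alpha mRNA 7.31-fold in 2U and 5.25-fold in 4U. In the treated libraries the same ratio was 2.43 in 2T and 2.40 in 4T, below both untreated values. Against the ATPases the beta sum was 27.0 times as high in 2U, 17.9 in 4U, 8.81 in 2T and 9.41 in 4T. The ratio of the alpha sum to the ATPase sum stayed between 3.41 and 3.92 in all 4 libraries. All members together made up 1.70% (2U), 1.84% (2T), 1.43% (4U) and 1.82% (4T) of the summed FPKM.

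**Figure D2:**
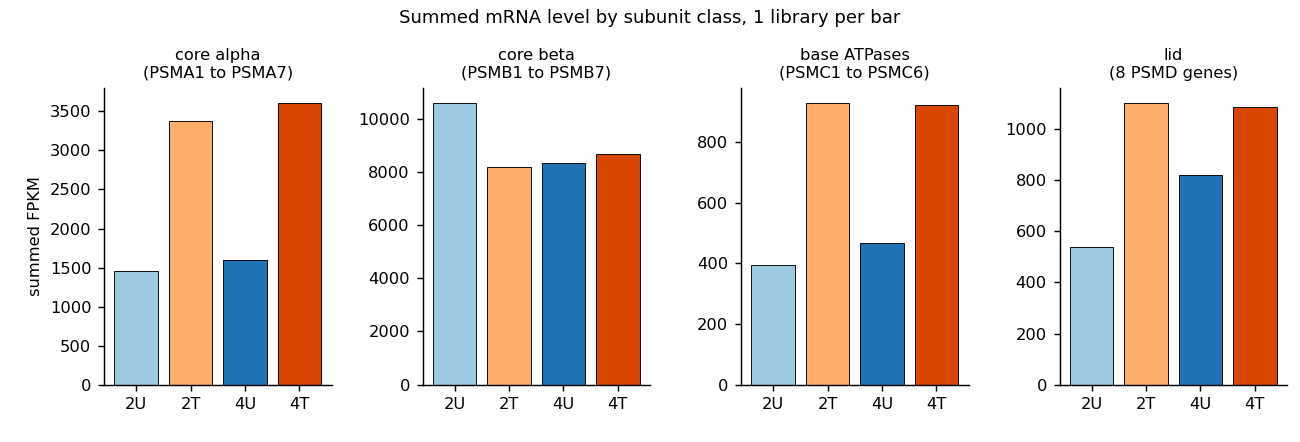
Summed FPKM of 4 subunit classes (y axes, each from 0 and with its own scale) in the libraries 2U, 2T, 4U and 4T, with 1 library per bar and hence no error bars. The alpha, ATPase and lid sums are higher in both treated libraries, and the beta sum is highest in 2U, at 10633.

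All 7 expressed alpha genes were higher in both treated libraries than in both untreated ones, beside 23.7% of all genes. Of these 7, 4 were at least 2-fold higher at both times, beside 8.31% of all genes. The class had a median ratio of 2.69-fold at 2 h and 2.89-fold at 4 h. PSMA7, the most abundant of the class, was at 716 FPKM (2U), 1610 (2T), 789 (4U) and 1505 (4T). PSMA3, the least abundant by its mean, was at 52.9, 142, 37.4 and 168 FPKM in the same order. PSMA4 was at 18.3, 198, 67.6 and 326 FPKM, which is 10.9-fold at 2 h and 4.83-fold at 4 h. Its 2U value was the lowest of the class, and the untreated libraries differed 3.70-fold between themselves, so the 2 h ratio rests partly on that value. PSMA5 was at 52.5, 172, 71.8 and 208 FPKM. PSMA6 was at 70.4, 273, 135 and 344 FPKM. In both of these genes the lower treated value was above the higher untreated one. For PSMA2, with 183, 316, 119 and 370 FPKM, the ratio reached 2-fold at 4 h only (1.73-fold at 2 h and 3.10-fold at 4 h). PSMA1 stayed below 2-fold at both times (1.84 and 1.87). The alpha mRNAs were also more alike after treatment, since the highest exceeded the lowest 39.2-fold in 2U, 21.1-fold in 4U, 11.3-fold in 2T and 8.97-fold in 4T.

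**Figure D3:**
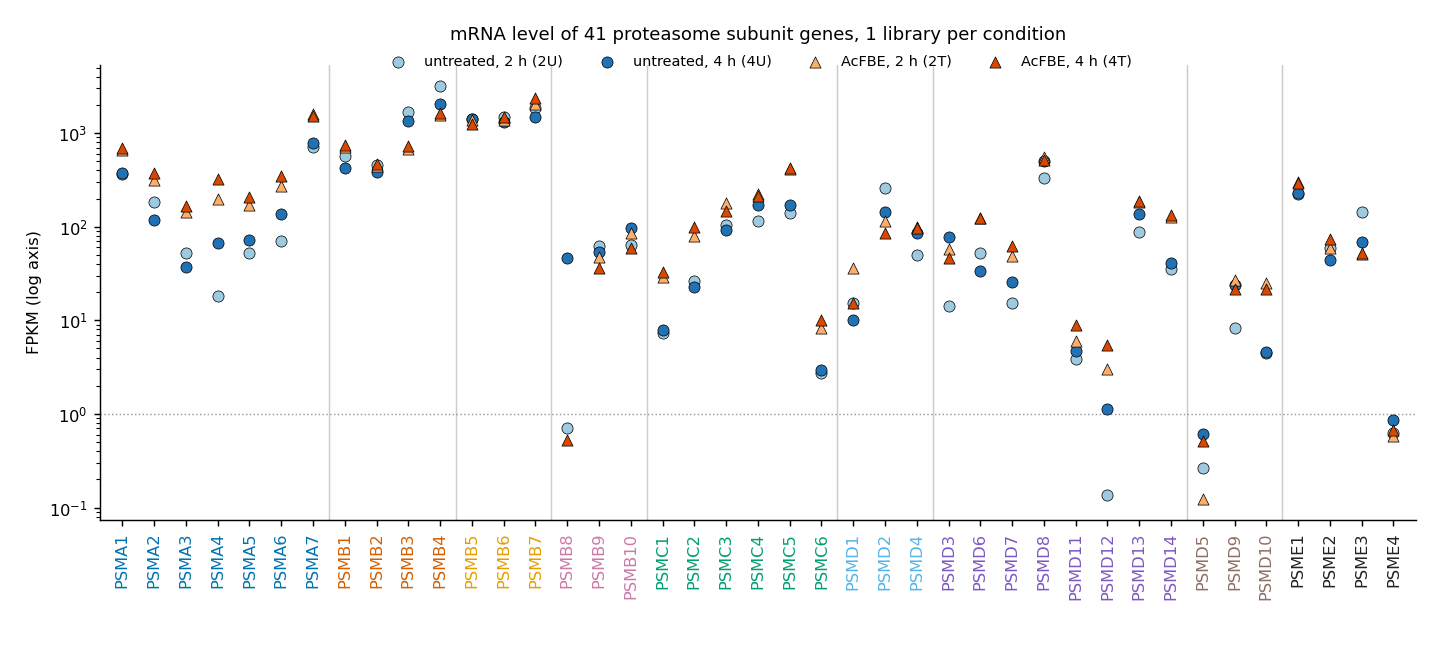
FPKM on a log axis of the 41 subunit genes listed above 0 in any library, grouped by class (grey vertical lines, coloured names), with circles for untreated and triangles for AcFBE-treated libraries. The dotted line marks 1 FPKM, and PSMB8 in 2T, listed at 0, has no point.

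None of the 7 constitutive beta genes was 2-fold higher at either time, and the class had a median log2 ratio of -0.03 at 2 h and 0.19 at 4 h. When the ratios were centred on the median of all genes, 2 of the 7 passed 2-fold higher at 4 h, where 23.6% of all genes did, and the class median was 0.54. PSMB4, a structural subunit of the inner ring, had the highest mean of all members, at 3209 FPKM (2U), 1567 (2T), 2022 (4U) and 1634 (4T). PSMB3, also structural, was at 1673, 670, 1332 and 734 FPKM. Both were lower in each treated library than in either untreated one, by more than 2-fold at 2 h (0.488 and 0.400 times) and by less at 4 h (0.808 and 0.551 times). PSMB2, the lowest of the structural genes, was at 453, 446, 384 and 473 FPKM, with overlapping groups. PSMB1 was higher in both treated libraries, 1.24-fold at 2 h and 1.80-fold at 4 h.

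The subunits that carry the proteolytic sites differed by less than 2-fold between any of the libraries. PSMB5, the chymotrypsin-like subunit that most proteasome inhibitors bind, was at 1410 FPKM (2U), 1380 (2T), 1401 (4U) and 1242 (4T). PSMB6, the caspase-like subunit, was at 1476, 1366, 1318 and 1500 FPKM. PSMB7, the trypsin-like subunit, was at 1843, 2055, 1490 and 2348 FPKM and was the only one of the 3 with both treated values above both untreated ones. The replacements that interferon induces were far lower. PSMB9, which takes the place of PSMB6, was at 62.6, 46.9, 53.6 and 36.3 FPKM, lower in both treated libraries. PSMB10, which replaces PSMB7, was at 64.2, 86.4, 96.3 and 59.9 FPKM and overlapped between groups. PSMB8, which replaces PSMB5, was listed at 0.704 FPKM (2U), 0 (2T), 46.3 (4U) and 0.524 (4T). It stood out in 4U alone, 65.7-fold above 2U, so its ratio at 4 h (log2 -6.46) describes 1 untreated library rather than a difference seen against both. TAP1, a peptide transporter gene that lies beside PSMB8, was also highest in 4U, with 0.058 FPKM (2U), 0 (2T), 5.14 (4U) and 0.221 (4T). In the GENCODE annotation lifted to GRCh37, PSMB8 (chr6:32808494-32812456, minus strand) and PSMB9 (chr6:32811913-32827628, plus strand) overlap. Whether the authors' gene models overlap in the same way is not given in the sources used here, nor is whether reads were assigned by strand. Reads at this shared end are therefore uncertain.

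All 6 ATPase genes were higher in both treated libraries than in both untreated ones, beside 23.7% of all genes. Their median ratio was 3.00-fold at 2 h and 2.87-fold at 4 h. At both times 4 of the 6 were at least 2-fold higher, beside 8.31% of all genes. PSMC5, the most abundant, was at 138 FPKM (2U), 413 (2T), 172 (4U) and 421 (4T). PSMC2 was at 26.0, 79.7, 22.4 and 99.6 FPKM. PSMC1 was at 7.26, 29.0, 7.97 and 33.2 FPKM. Its untreated values differed 1.10-fold and its treated values 1.14-fold, while the treated values were 4.00-fold and 4.17-fold above the untreated ones. PSMC6 was lowest, at 2.72, 8.20, 2.96 and 9.97 FPKM. PSMC3 and PSMC4 stayed below 2-fold, with ratios from 1.26 to 1.94. Within this ring of 6 subunits the highest mRNA exceeded the lowest 50.8-fold (2U) to 58.0-fold (4U) in untreated cells.

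PSMC1 and PSMC6 are among 6 members with a near-identical copy elsewhere in the genome, defined as at least 95% identity over at least 100 bases of the transcript. The others are PSMA2, PSMA6, PSMD4 and PSME2. The levels of these members are uncertain where reads could match either copy. PSMC1 has 3 such pseudogenes, the closest of them identical over the matched stretch.

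In the base outside the ATPase ring the 2 scaffold subunits had ratios of opposite sign. PSMD2, the Rpn1 scaffold, was at 259 FPKM (2U), 116 (2T), 145 (4U) and 85.7 (4T), lower in both treated libraries (0.448 times at 2 h and 0.590 times at 4 h). PSMD1, the Rpn2 scaffold and the lowest of the class, was at 15.5, 36.3, 10.1 and 15.3 FPKM, where 4T lies below 2U. The ubiquitin receptor PSMD4 was 1.98-fold higher at 2 h and 1.15-fold at 4 h.

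Of the 8 lid genes 7 were higher in both treated libraries than in both untreated ones, beside 23.7% of all genes. The median ratio was 2.72-fold at 2 h and 2.13-fold at 4 h. PSMD14, the deubiquitinase that cuts the chain from the substrate, was at 35.1 FPKM (2U), 126 (2T), 41.1 (4U) and 134 (4T). PSMD6 was at 52.0, 123, 33.3 and 125 FPKM. PSMD7, the partner of PSMD14, was at 15.5, 48.4, 25.8 and 61.5 FPKM. In these 3 genes every treated value lay above every untreated one. PSMD12 was at 0.137, 2.99, 1.13 and 5.41 FPKM. Its ratio of 21.9 at 2 h is the largest of all members and rests on a 2U value close to 0, and at 4 h the ratio was 4.79. PSMD8, the most abundant lid gene, was at 330, 557, 499 and 516 FPKM, so that the difference at 4 h was 1.03-fold. PSMD13 was at 88.7, 185, 138 and 188 FPKM, and PSMD11 was 1.54-fold and 1.91-fold higher. PSMD3 was the exception, at 14.2, 57.8, 77.3 and 46.0 FPKM. Its untreated values lay on both sides of the treated ones and differed 5.45-fold, more than any treated to untreated ratio of that gene.

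The chaperones that guide the assembly of the base were at low levels. PSMD10, also known as gankyrin, was at 4.47 FPKM (2U), 25.3 (2T), 4.58 (4U) and 21.7 (4T), 5.66-fold and 4.73-fold higher with AcFBE. PSMD9 was at 8.37, 26.8, 23.9 and 21.4 FPKM, so that 2U alone stood apart. PSMD5 was at 0.265, 0.122, 0.613 and 0.514 FPKM, below the filter. Gankyrin is known as an oncoprotein in liver cancer, and its untreated values differed 1.02-fold.

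None of the activator genes was 2-fold higher at either time. PSME1, which encodes PA28 alpha and was the most abundant, was at 224 FPKM (2U), 298 (2T), 227 (4U) and 290 (4T). Its partner PSME2 was at 0.995 times the untreated level at 2 h and 1.67 times at 4 h. PSME3, the nuclear PA28 gamma, was at 142, 50.5, 68.2 and 52.1 FPKM, lower in both treated libraries, with 2U the highest. PSME4, which encodes PA200, was at 0.629, 0.581, 0.853 and 0.676 FPKM, below the filter.

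The change between 2 and 4 h without a change of treatment gives the only scale against which these ratios can be read. Between the untreated libraries (4U over 2U) the members had a median of 1.03-fold (log2 0.04), with 5 of 39 at least 2-fold higher (21.6% of all genes) and 1 lower (9.89%). The 5 were PSMA4, PSMB8, PSMD3, PSMD9 and PSMD12, and the lower one was PSME3. Between the treated libraries (4T over 2T) the median was 1.04-fold (log2 0.06), with 0 of 38 at least 2-fold higher (4.15%) and 1 lower (5.19%), which was PSMD1. The log2 ratios of members had an SD over genes of 1.27 between the untreated libraries and of 0.36 between the treated ones, beside 1.21 and 0.66 for all genes. The SD of 2T over 2U over members was 1.22. These SDs are over unlike sets of members. That between the untreated libraries is over 39 and includes PSMB8, at log2 6.04. PSMB8 has no ratio for 2T over 2U or 4T over 2T, whose SDs are over 38, so the SDs cannot be compared directly.

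Transcript base composition moved with these results. Over all genes the log2 ratio of treated to untreated had a Spearman rho of -0.24 with the GC content of the transcript at 2 h and of -0.69 at 4 h (86.9% and 86.7% of genes matched to the annotation). Over members it was -0.50 (n = 38) and -0.80 (n = 39). Between libraries of equal treatment it was 0.23 for 4U over 2U and -0.45 for 4T over 2T over all genes. The median GC content was 40.9% in the 8 alpha genes, including PSMA8, which has no ratio, and 45.7% in the lid. It was 50.4% in the ATPases, 49.9% in the structural beta genes and 53.0% in the catalytic ones. In the fifth of genes with the lowest GC content, 51.9% of all genes and 10 of 11 members were at least 2-fold higher at 4 h, with medians of log2 1.04 and 1.75. At 2 h these were 40.6% and 9 of 11 members, with medians of 0.71 and 1.71. The part of base composition in the differences between classes was not tested.

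**Figure D4:**
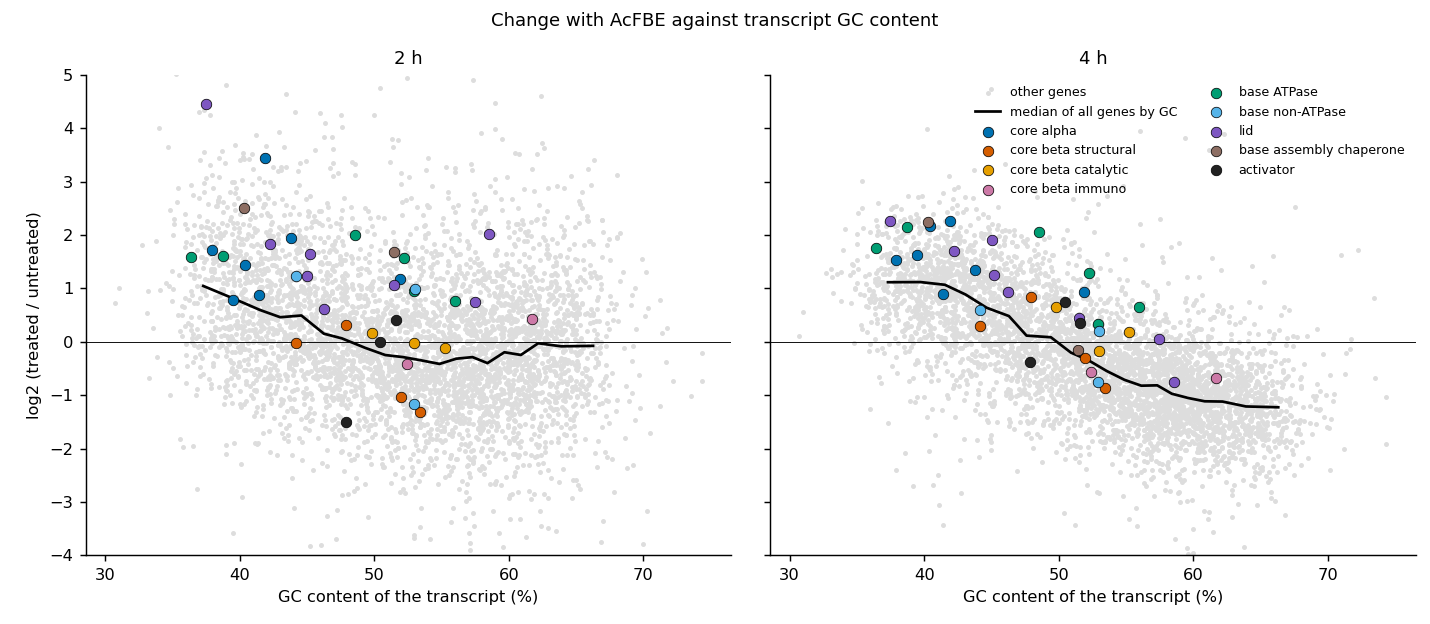
Log2 ratio of treated to untreated FPKM (y axis) against the GC content of the transcript in percent (x axis) at 2 h (left) and 4 h (right), with coloured points for subunit genes by class, grey points for other genes and a black line for the median of all genes in 20 bins of GC content. Most coloured points lie above the line, the alpha genes other than PSMA7 (51.9%) lie at low GC content, and PSMB8 at 4 h (-6.46) and other points beyond the axis are not drawn.

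When the median of genes of the same GC content was taken off each log2 ratio, an alternative added after the data were seen, the median of members was 0.72 at 2 h and 0.63 at 4 h. The number at least 2-fold higher was then 16 at 2 h and 10 at 4 h, beside 19.8% and 9.33% of all genes. At each time 1 was lower, beside 17.5% (2 h) and 10.4% (4 h). The alpha median became 0.67 at 2 h and 0.51 at 4 h, and that of the constitutive beta genes 0.24 and 0.37. The ATPase median became 1.19 and 1.25, and the lid median 1.20 and 0.64. The difference between alpha and beta genes was therefore smaller on this scale, at 4 h in particular. The ATPases and the lid stood above both, and at 2 h the lid was level with the ATPases. PSMC1 had 2.11 and 1.97 on this scale and PSMC5 1.86 and 1.63. PSMA4 had 2.85 and 1.20, whereas PSMA1 had 0.28 and -0.17. PSMB3 had -0.97 and -0.31.

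Genes that act with the proteasome were taken from 7 lists, whose counts stand against the shares of all genes given above (22.6% higher and 18.7% lower at 2 h, 16.4% and 27.7% at 4 h). Of the 5 factors that assemble the core (PSMG1 to PSMG4 and POMP), 1 was at least 2-fold higher at 2 h (PSMG2) and 2 were at 4 h (PSMG1 and POMP), with medians of log2 0.94 and 0.60 and 0 lower at either time. Of 4 measured proteins bound to the particle, 1 was higher at both times and 1, the ubiquitin receptor gene ADRM1, was lower at 2 h. The first was SHFM1, which encodes the small lid subunit SEM1, at 19.4 FPKM (2U), 53.2 (2T), 29.5 (4U) and 61.1 (4T). Both treated values lay above both untreated ones, as in 7 of the 8 lid genes. UBA1, which encodes the main enzyme that activates ubiquitin, went the other way, at 339, 101, 206 and 69.7 FPKM (log2 -1.75 and -1.56). SQSTM1, which encodes the autophagy receptor p62, was at 379, 65.2, 163 and 58.4 FPKM (log2 -2.54 and -1.48). Among the 4 measured shuttle genes that carry ubiquitinated proteins, SQSTM1 was the only one lower at both times, and 2 others, UBQLN1 and UBQLN4, were at least 2-fold higher at 2 h. Among the ubiquitin genes, RPS27A was at least 2-fold higher at 4 h. Of the 8 genes that control proteasome genes, only NFE2L1 and VCP passed the filter, and neither was 2-fold different. NFE2L1 was at 5.16 FPKM (2U), 10.1 (2T), 9.87 (4U) and 8.57 (4T). Among the interferon partners of the immunoproteasome, B2M was at least 2-fold higher at 4 h.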

How the data were processed

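The authors prepared 1 poly(A) library per condition, amplified the cDNA by a PCR protocol made for single cells, sequenced it on SOLiD 3 and aligned the reads to hg19. The submitters' processing notes name TopHat and Cufflinks, while the methods name Bowtie and Cufflinks, with no versions given for the mRNA. The values used are FPKM as deposited by the authors, scaled to transcript length and mapped reads. Their sum was between 786224 and 845681 in the 4 libraries. The miRNA libraries were not used here.

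Ratios were computed without a pseudocount in Python 3.11.15 with pandas 2.3.3, numpy 2.4.6 and scipy 1.17.1, and plotted with matplotlib 3.10.9. A gene was measured if its mean over the 4 libraries was at least 1 FPKM and both values were above 0. A count takes ratios of at least 2-fold in either direction. With 1 library per condition no error between replicates can be given at a single time, so medians and counts stand beside those of all genes measured. limma 3.58.1 in R 4.3.3 was fitted to log2 FPKM of the 4 libraries with time as a term and a mean-dependent prior, for genes above 0 in all 4. The computation of medians and counts was checked on made-up ratios of known size. GC content is that of 1 annotated transcript per gene (GENCODE lifted to GRCh37), and promoters are those of RefSeq on GRCh38.p14. PSMD subunits were put in the base, the lid or the assembly chaperones by their textbook place.

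Values in all 4 libraries are given for members at least 2-fold different at either time, for the highest and lowest member of each class and for the interferon-induced subunits with their counterparts. Genes of the related lists are named where they passed 2-fold the same way at both times, and the other genes of these lists were named after their values were seen. Some results of these lists are not reported here. The members and lists were chosen with earlier results of these data known. Alternatives were 3 scalings, 2 pseudocounts, 2 filters and, added after seeing the data, centring within GC content, the limma fit, a mean of at least 50 FPKM and the untreated library of the other time.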

Additional observations from a re-analysis of the deposited data

Results flagged for a closer look

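For 6 of the 38 members with both ratios, the ratio of treated to untreated had opposite signs at 2 h and 4 h. The share of all genes with opposite signs was not computed, so this count has no background to be read against. The differences are given as the log2 ratio at 4 h minus that at 2 h and were not tested, since each time has 1 library per condition. PSMD3 had a difference of -2.77 (2.03 at 2 h and -0.75 at 4 h), PSMD9 of -1.84 (1.68 and -0.16) and PSMB10 of -1.12 (0.43 and -0.69). For PSMD3 and PSMD9 the 2U value was the lowest of the 4 libraries, and for PSMD3 and PSMB10 the 4U value was the highest. PSME2 had a difference of 0.75 (-0.01 and 0.74), PSMB2 of 0.32 (-0.02 and 0.30) and PSMB6 of 0.30 (-0.11 and 0.19).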

How the results depend on the processing

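Of the 194 values computed under the alternatives, 154 moved by less than 0.35 on the log2 scale (the median absolute log2 ratio of all genes between the treated libraries, used because no replicates exist) or, for counts, by no more than 1.5 times. The values below moved further, and the cause was not tested except where it is named. With upper quartile scaling, which by its construction depends on how many low values a library lists, the median log2 ratio of members became 0.20 at 2 h and 1.02 at 4 h, that of 4T over 2T 0.52, and that of 4U over 2U reversed from 0.04 to -0.63. The count of members at least 2-fold higher at 2 h became 7 (10.5% of all genes). Those of 4T over 2T became 3 higher (12.2%) and 0 lower (1.58%), and that of 4U over 2U 9 lower (29.6%). Class medians under it were 0.66 (alpha), -0.80 (constitutive beta), 0.81 (ATPase) and 0.67 (lid) at 2 h and 1.89, 0.55, 1.88 and 1.45 at 4 h. Centring on the median of all genes gave 1.01 for all members at 4 h, and 1.89, 0.54, 1.88 and 1.45 for these classes. Centring within transcript GC gave 0.67 (alpha) and 1.19 (ATPase) at 2 h, and 0.51 (alpha) and 0.64 (lid) at 4 h. On that scale 1 member was lower at 2 h (17.5% of all genes) and 0 were lower for 4U over 2U (11.7%). With a mean of at least 50 FPKM fewer members were measured (28). Of these, 10 were higher at 2 h (15.1% of all genes under this filter). At 4 h 9 were higher (16.8%) and 0 lower (16.4%). For 4U over 2U 1 was higher (10.7%), and for 4T over 2T 0 were lower (0.439%). The ATPase median at 4 h was then 0.97. Without a filter on the mean, or with a pseudocount of 0.1, 1 member was higher for 4T over 2T, beside 16.1% and 7.16% of all genes. Against the untreated library of the other time the median of members at 2 h was 0.61, with 0 lower (19.1% of all genes). At 4 h 3 were lower (22.8%), and the lid medians were 0.66 at 2 h and 1.48 at 4 h. The alpha, ATPase and lid medians were above 0 under every alternative run at both times. No paired analysis was possible because all 4 libraries carry the same replicate number, so that a block by number takes nothing out. With time as the block in its place, limma called 0 of 38 members at an adjusted p of 0.05. Without replicates, no ratio here can be set against the spread of repeated cultures.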
